A study of Homo sapiens with 9 samples.

Results

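Rows for gene families linked to the transcription factor DUX4 were followed in human naive pluripotent cells on their way to a primed-like state. The rows were chosen from the count table by symbol alone: those beginning with PRAMEF, TRIM43, TRIM48, TRIM49, TRIM51, TRIM53, TRIM64, TRIM77, RFPL, MBD3L, FRG2 or KHDC1, and the single genes ZSCAN4, KDM4E, H3Y1, H3Y2, SLC34A2, CCNA1, ZNF280A, DBET and DUX4. They came to 67 rows of 56312, in 19 families, and 51 of the 67 passed the filter on low counts (24187 rows did in all). The symbols were chosen with values of these libraries known, so the comparison of UNC with DMSO is given as a description and nothing is read from its calls. PROTAC against UNC uses the same UNC libraries, so its p-values for members describe them and are not independent evidence.

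The cells were HNES1, a wild-type line derived from a human embryo and kept naive in PXGL, a medium with a MEK inhibitor, LIF, a protein kinase C inhibitor and the tankyrase inhibitor XAV939, on mouse feeder cells. Transition was started by moving them to N2B27 medium with XAV939, and all groups were harvested on day 5. The group DMSO had vehicle, the group PROTAC had UNC6852 at 2.5 µM, which degrades the EED subunit of Polycomb repressive complex 2 (PRC2), and the group UNC had UNC1999 at 1 µM, which blocks the catalytic subunits EZH2 and EZH1. Compounds were given from 1 day ahead of that move and renewed daily, and the study reports 3 independent runs, numbered 1 to 3 in each group. PRC2 places the repressive mark H3K27me3, so the comparisons ask how each way of disabling it bears on these genes.

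DUX4 is a double homeobox factor encoded in each unit of the D4Z4 repeat near the end of chromosome 4. It is switched on for a short time in the cleavage embryo, where it activates genes and retroviral promoters of the first wave of embryonic transcription, and is then silenced. In skeletal muscle its failure to stay silent causes facioscapulohumeral dystrophy. Many of its targets lie in young gene families with several near-identical copies, and small numbers of cells with a like program arise in naive human cultures.

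The members lay in blocks. In the deposited GRCh38 coordinates all 23 PRAMEF rows were on chromosome 1, between 12773738 and 13421328, and 13 members, mostly TRIM genes, were on chromosome 11. The 6 MBD3L rows were on chromosome 19. H3Y1 (ENSG00000269466) and H3Y2 (ENSG00000268799) were on chromosome 5, and 4 members, DUX4 (ENSG00000260596), DBET (ENSG00000281591), FRG2 and SLC34A2, were on chromosome 4. DBET, a long RNA from the D4Z4 region that has been tied to Trithorax proteins, spans chr4:190064502-190067864, and DUX4 spans chr4:190173774-190185942.

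Of the 67 members, 55 had an entry in a RefSeq table of promoters (GRCh38.p14, 250 bases before to 50 after each start of transcription). The windows were searched on both strands for TAA, then any 3 letters, then AATCA, the core of the sequence DUX4 binds. This motif was found for 18 of the 55 members (32.7%), from 7 families, against 1.11% of all 27305 symbols in the table (0.888% of its 35116 windows). These matches are letters in a window and not measured binding, and copies of 1 ancestor share them. The following lines show the match in capitals with its flanks, read along the strand of the gene, for the genes whose families lead the values that follow.

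H3Y1, chr5:17655868-17655918, minus strand: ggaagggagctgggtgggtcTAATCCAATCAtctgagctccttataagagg

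H3Y2, chr5:17492097-17492147, minus strand: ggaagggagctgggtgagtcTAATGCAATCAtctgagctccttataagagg

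MBD3L2, chr19:7049234-7049284, plus strand: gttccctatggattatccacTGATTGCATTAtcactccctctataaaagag

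MBD3L5, chr19:7030467-7030517, plus strand: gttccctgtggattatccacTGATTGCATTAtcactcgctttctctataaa

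TRIM48, chr11:55261989-55262039, plus strand: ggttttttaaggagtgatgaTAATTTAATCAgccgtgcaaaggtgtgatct

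TRIM49B, chr11:49028654-49028704, plus strand: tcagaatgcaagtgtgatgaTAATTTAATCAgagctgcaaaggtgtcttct

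TRIM51, chr11:55883058-55883108, plus strand: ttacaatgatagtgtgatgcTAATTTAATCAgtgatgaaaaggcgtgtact

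PRAMEF8, chr1:13285309-13285359, minus strand: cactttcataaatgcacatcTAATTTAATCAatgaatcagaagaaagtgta

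RFPL4A, chr19:55759008-55759058, plus strand: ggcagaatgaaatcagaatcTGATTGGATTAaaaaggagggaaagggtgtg

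The 3 free letters of the motif differed between members. TAATTTAATCA stood before 8 members, all of them TRIM or PRAMEF genes, and TAATGCAATCA before 6, H3Y2 and 5 MBD3L genes. H3Y1 shared its letters with RFPL4A and not with H3Y2, and the 3 RFPL members with the motif had 3 different forms. In the MBD3L and RFPL4A lines the motif is on the other strand, so the capitals are its reverse complement. PRAMEF7 and PRAMEF8 carried the same 51 letters in this stretch, and their 250 upstream bases were 74.2% identical, against 83.2% for H3Y1 and H3Y2 and 46.3% for TRIM48 and TRIM51.

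The distance of the motif from the start varied within families and overlapped between them. Its first base was 49 and 51 bases before the start in H3Y1 and H3Y2, 54 to 91 bases before it in the 5 MBD3L genes, and 69, 90 and 145 bases before it in RFPL4A, RFPL4AL1 and RFPL1S. In the TRIM genes it lay 146 to 219 bases before the start, and in PRAMEF7 and PRAMEF8 165 and 202 bases. The whole upstream stretch is shown for the H3Y pair, which had the highest level of the members with the motif.

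H3Y1, chr5:17655850-17656099, minus strand: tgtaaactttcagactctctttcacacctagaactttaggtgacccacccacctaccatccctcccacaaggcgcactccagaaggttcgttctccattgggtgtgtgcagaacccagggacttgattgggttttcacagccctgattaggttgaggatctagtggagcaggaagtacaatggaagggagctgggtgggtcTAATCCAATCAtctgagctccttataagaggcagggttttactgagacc

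H3Y2, chr5:17492077-17492326, minus strand: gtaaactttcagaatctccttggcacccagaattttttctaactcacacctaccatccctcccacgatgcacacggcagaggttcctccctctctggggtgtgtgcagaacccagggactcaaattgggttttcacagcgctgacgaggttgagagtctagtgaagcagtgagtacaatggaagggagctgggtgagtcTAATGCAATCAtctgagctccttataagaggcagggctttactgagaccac

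**Figure D1:**
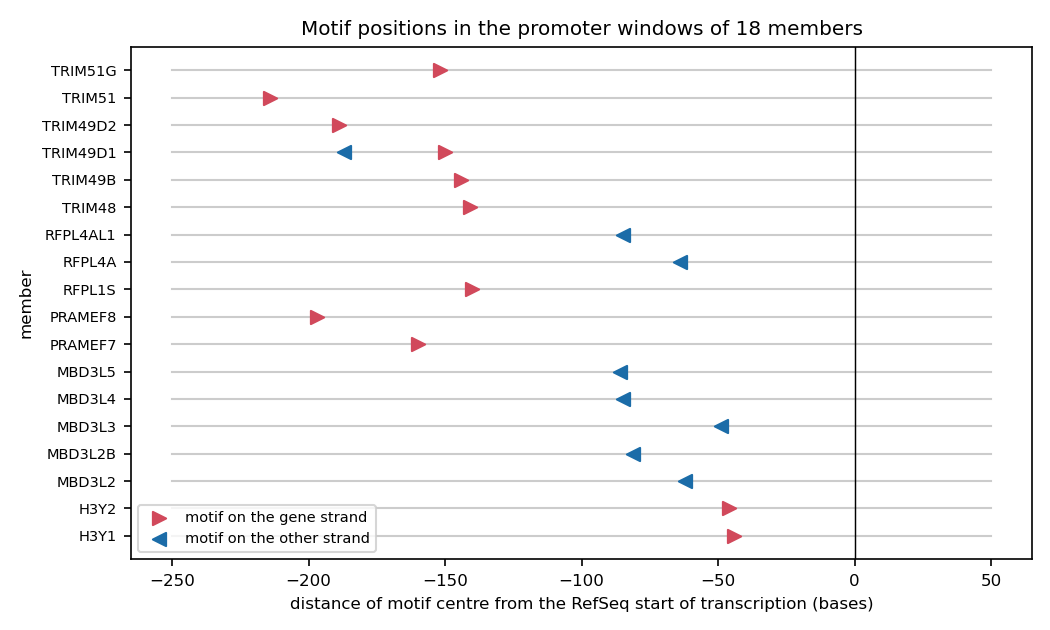
Position of the motif in the promoter windows of the 18 members that hold it, as the distance in bases of the motif centre from the RefSeq start of transcription, with a triangle pointing right for the strand of the gene and left for the other strand. The H3Y motifs lie nearest the start, those of MBD3L, RFPL4A and RFPL4AL1 follow, and those of RFPL1S and of the TRIM and PRAMEF genes lie farther upstream.

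Most members were lower with UNC1999 than with vehicle or with the degrader. Summed over all 67 members, the level was 625.5, 581.7 and 643.1 CPM in DMSO 1 to 3, 791.5, 608.1 and 647.2 in PROTAC 1 to 3, and 443.4, 437.7 and 419.3 in UNC 1 to 3, so that UNC stood at 0.709, 0.752 and 0.652 times DMSO within a number. KHDC1L alone held 38.8 to 68.5% of these counts, so the sum is also given without the 3 KHDC1 rows, a choice made after its values were seen. Over those 64 members the level was 342.9, 260.8 and 270.2 CPM (reads of a gene relative to the TMM-scaled total of the library) in DMSO 1 to 3. It was 478.3, 264.2 and 291.9 CPM in PROTAC 1 to 3, and 224.7, 135.9 and 127.1 CPM in UNC 1 to 3. In both sums every UNC library lay below every DMSO and PROTAC library. Without the KHDC1 rows, UNC stood within a number at 0.655, 0.521 and 0.470 times DMSO, and PROTAC at 2.13, 1.94 and 2.30 times UNC. In bulk RNA, fewer cells with this program and less of its RNA per cell cannot be told apart.

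Libraries of the same number also moved together. Number 1 was the highest of its group in the sum of the 64 members in all 3 groups, but over all 67 members DMSO 3 lay above DMSO 1. PROTAC 1 was the highest of the 9 libraries for 41 of the 51 tested members. UNC 2 was the lowest for 25 and UNC 3 for 22. Values are therefore given from a fit by group alone and from one with the number as a block (the paired fit), since the block changes the calls.

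The 9 libraries held 31651742 to 101081643 counts each and 610699525 in all. Markers of general pluripotency summed to 4096 to 4778 CPM over all libraries. Some marker lists moved in the direction of the members and others did not. In UNC against DMSO 7 of 11 tested trophoblast markers were called lower in the paired fit (6.46% of all genes were) and 1 by group alone, and the list summed to 28.8 to 59.7 CPM in DMSO, 25.6 to 55.9 in PROTAC, against 20.3 to 37.6 in UNC. Of 5 tested amnion markers 3 were lower (2 by group alone), with sums of 14.3 to 15.9, 11.4 to 15.9 and 7.75 to 10.3 CPM, and VTCN1 and VGLL1 were at or near 0 in every library. In the same paired comparison 5 of 10 primed pluripotency markers, 3 of 4 fibroblast markers and 8 of 12 markers of 8-cell-like cells were called lower, the last list holding members. The trophoblast, primed and fibroblast lists each had 1 marker called higher (7.04% of all genes were). Of 7 general pluripotency markers 3 were higher and 0 lower, of 11 naive markers 3 were higher and 2 lower, and of 6 tested germ cell markers 0 were called. Within the groups the trophoblast genes CGA and GATA2 were lowest in number 1, where the summed level of the members without the KHDC1 rows was highest. Both genes were picked from the trophoblast list, and the pattern of its other markers by number is not given. The part of these cell types in the result was not tested.

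By group alone, edgeR's quasi-likelihood test (adjusted p under 0.05) called 1 of 51 members in UNC against DMSO, DBET, which was lower. Of all genes tested 0.401% were called lower, 0.318% higher and 0.719% in either direction. Its unadjusted p was under 0.05 for 27 members, all lower, and for 3001 of 24187 genes, 1521 of them lower. The call of DBET was lost without DMSO 1, without DMSO 3 or without any 1 of the UNC libraries. In the paired fit 33 members were called lower and 0 higher (6.46% of all genes were called lower, 7.04% higher, 13.5% in either direction). The 51 had a median log2 fold change of -0.82 without the block and of -0.87 with it, and all genes had one of -0.01 in both fits. For 25 members the 3 UNC libraries all lay below the 3 DMSO libraries (9.07% of all genes) and for 0 all above (8.34%), and for 44 UNC was lower within every number (24.1%). Since values of this contrast went into the choice of members, these counts, and those of this contrast by family below, only describe them.

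In PROTAC against UNC, by group alone, edgeR called 0 of 51 members (0.00827% of all genes were called higher). There the lowest adjusted p of a member was 0.152. The unadjusted p was under 0.05 for 40 members, all of them higher in PROTAC. That held for 1137 of 24187 genes, 789 of them higher in PROTAC. In the paired fit 37 members were higher in PROTAC and 0 lower (2.17% of all genes were called higher, 0.74% lower, 2.91% in either direction). The 37 were 1.27 to 3.69 times higher, with a median of 2.24 times, at adjusted p from 1.57e-11 to 0.0191. All 37 were higher in PROTAC within every number, as were 48 of the 51 (17.8% of all genes), and 25 of the 51 had all PROTAC libraries above all UNC libraries (5.16%) and 0 had them all below (3.93%). This comparison uses the same UNC libraries as the one before, so it is not a separate sighting of their low level. That limit holds for every adjusted p of a member or family in PROTAC against UNC below, and by group alone 0 passed. The doses of the 2 compounds also differ.

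In PROTAC against DMSO by group alone, edgeR gave 0 members an unadjusted p under 0.05, against 1200 of 24187 genes. It called 0 members (0% of all genes), with a lowest adjusted p of 0.991. The DESeq2 test also called 0. In the paired fit 1 was called, PRAMEF20, which was higher. Of all genes 2.01% were called higher there, 0.984% lower and 2.99% in either direction. The unadjusted p of that fit was under 0.05 for 11 members, all of them higher. It was also under 0.05 for 3853 of 24187 genes, 2156 of them higher and 1697 lower. The members had a median log2 fold change of 0.28 without the block and 0.22 with it (-0.01 for all genes in both). Without PROTAC 1 the median by group alone was -0.04, so its sign rested on that library, and with the block it was then 0.14. In this comparison 16 of 51 members were higher within every number (18.5% of all genes), and for 0 did the groups separate upwards (6.06%) or downwards (5.44%).

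**Figure D2:**
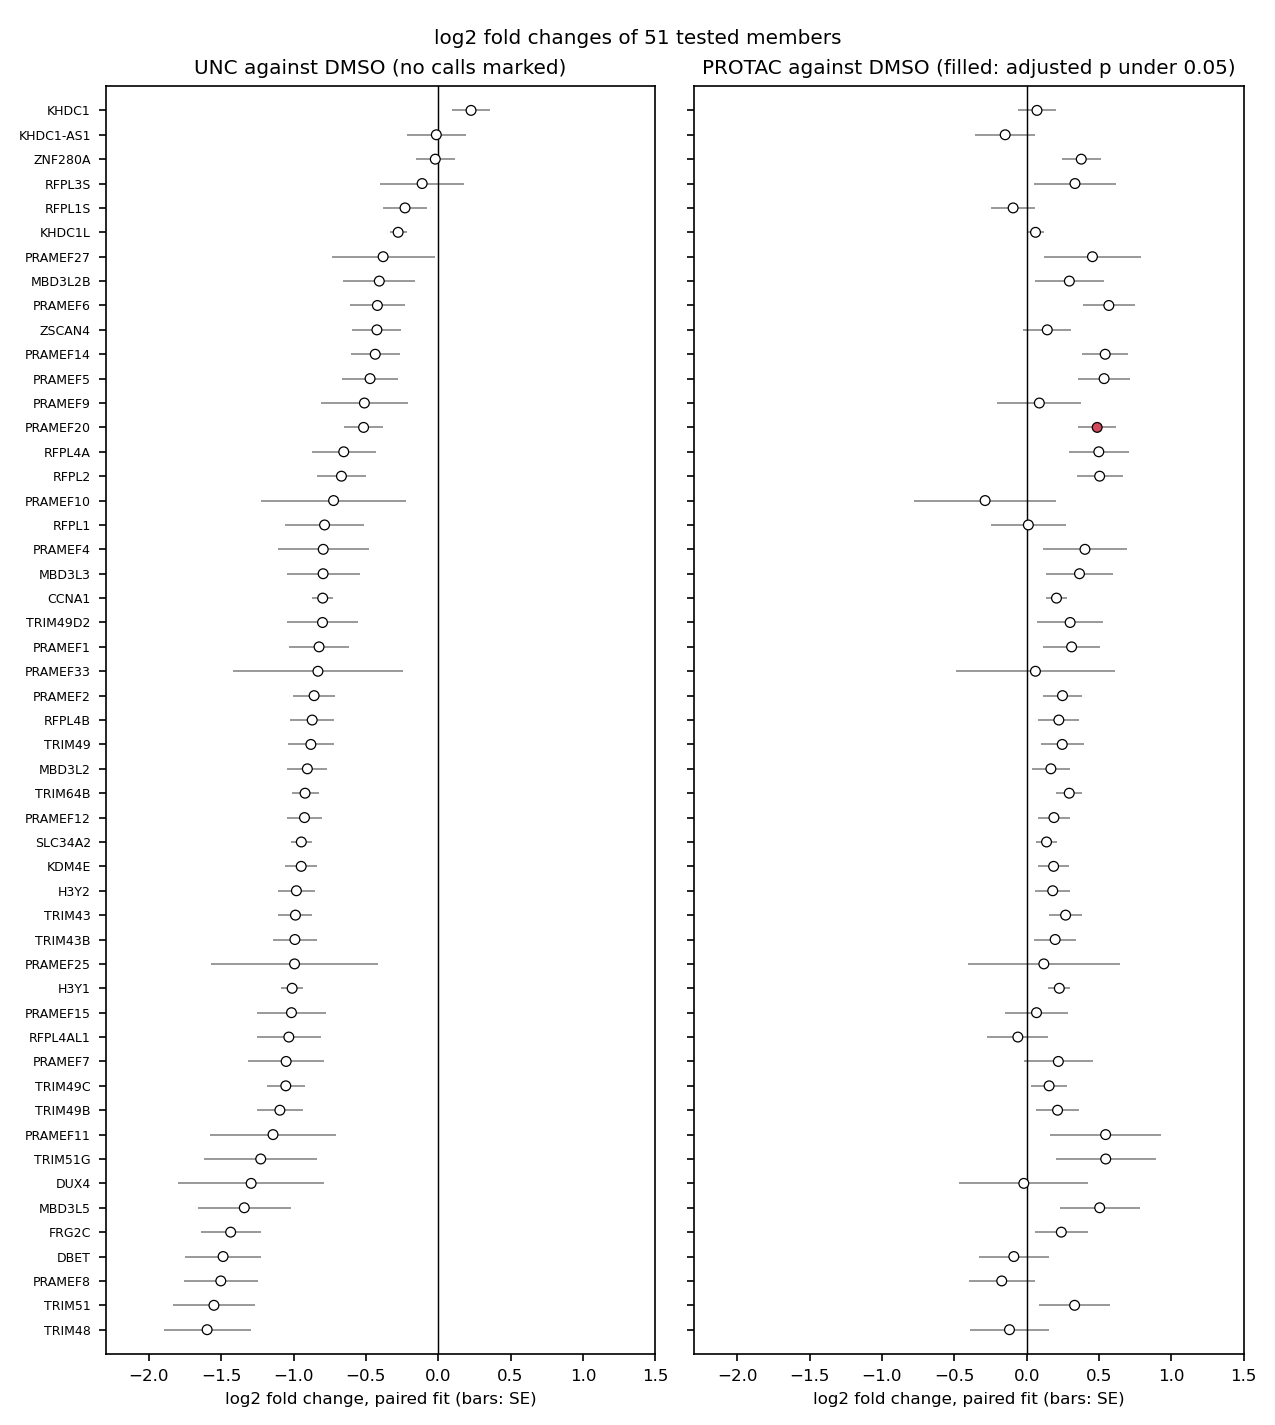
Log2 fold change of each of the 51 tested members in the paired fit (points; bars are the SE), for UNC against DMSO on the left and PROTAC against DMSO on the right, ordered by the left panel. On the left 50 of 51 points lie below 0, with KHDC1 the exception, and on the right 43 lie above 0 and 1, PRAMEF20, passes the test.

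The D4Z4 region itself gave few counts. DUX4 had 148 counts in all 9 libraries, at 0.349, 0.368 and 0.141 CPM in DMSO 1 to 3, 0.338, 0.406 and 0.0946 in PROTAC, against 0.115, 0.127 and 0.0890 in UNC. All 3 UNC libraries lay below the 3 DMSO libraries, but PROTAC 3, with 3 counts, lay among them. Neither PROTAC against UNC (log2 fold change 1.27 ± 0.51, SE; adjusted p = 0.214 in the paired fit) nor PROTAC against DMSO (-0.02 ± 0.44; adjusted p = 0.993) passed. DUX4 had 3 to 32 counts a library, and the unadjusted p of PROTAC against UNC was 0.0153 in the paired edgeR fit.

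DBET was better covered, with 675 counts. Its level was 2.11, 0.879 and 1.65 CPM in DMSO 1 to 3, 1.17, 1.60 and 1.45 in PROTAC, against 0.568, 0.561 and 0.508 in UNC. The UNC libraries were alike and below all others, while the DMSO libraries spread over more than a doubling. DBET was higher in PROTAC than in UNC in the paired fit (1.40 ± 0.27; adjusted p = 0.00130) and did not pass between PROTAC and DMSO (-0.09 ± 0.24; adjusted p = 0.912). In UNC against DMSO its log2 fold change was -1.49 in both fits. Unlike most members it was not highest in PROTAC 1, and 16.6% of the 75-base windows of its transcripts also occurred in another gene, chiefly DUX4.

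FRG2 genes lie beside D4Z4 and related repeats, and their function is not settled. FRG2C on chromosome 3 was the 1 of 4 that passed the filter, at 2.40, 2.21 and 1.79 CPM in DMSO, 3.42, 1.94 and 2.49 in PROTAC, against 1.30, 0.433 and 0.635 in UNC. Its UNC libraries lay below all others. It was higher in PROTAC than in UNC by a log2 fold change of 1.67 ± 0.20 (adjusted p = 6.81e-07, paired), and its fold change in UNC against DMSO was -1.44. The highest of the others, FRG2KP, had 30 counts in all.

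Among chromatin genes, the H3Y histones and KDM4E followed the summed level. H3Y1 and H3Y2 encode primate variants of histone H3, and H3Y1 had 37.2, 31.7 and 26.8 CPM in DMSO 1 to 3, 51.3, 33.0 and 29.7 in PROTAC, against 22.4, 15.01 and 11.3 in UNC. The UNC range lay wholly below the others, and the DMSO and PROTAC ranges overlapped. PROTAC exceeded UNC by 1.24 ± 0.08 (adjusted p = 1.57e-11, paired), while PROTAC against DMSO gave 0.23 ± 0.08 (adjusted p = 0.106). H3Y2 lay at 6.22 ± 0.896 CPM in DMSO, 7.14 ± 2.48 in PROTAC, against 3.22 ± 1.36 in UNC (SD, n = 3), and was higher in PROTAC than in UNC by 1.16 ± 0.13 (adjusted p = 7.98e-08, paired). H3Y1 took 82.2 to 85.5% of the counts of the pair in the 9 libraries, so the ratio of the copies was alike in all groups.

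KDM4E, an intronless member of the KDM4 histone demethylases, had 16.2, 9.46 and 10.2 CPM in DMSO, 20.2, 9.81 and 11.6 in PROTAC, against 10.3, 5.12 and 3.86 in UNC. Here the number outweighed the group: UNC 1 lay above DMSO 2 and DMSO 3, yet within each number UNC was the lowest. PROTAC exceeded UNC by 1.13 ± 0.11 (adjusted p = 9.10e-08, paired) and by group alone its adjusted p was 0.815.

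The MBD3L genes encode relatives of the methyl-CpG-binding protein MBD3 that lack its binding domain and can join the NuRD repressor complex. MBD3L2 held most of the family's counts, at 5.34, 3.599 and 4.48 CPM in DMSO, 7.62, 3.74 and 3.85 in PROTAC, against 3.02, 1.76 and 2.42 in UNC. PROTAC exceeded UNC without overlap (1.07 ± 0.14; adjusted p = 1.64e-06, paired). MBD3L3 (1.16) and MBD3L5 (1.85) were also higher in PROTAC than in UNC in the paired fit, with adjusted p of 0.00314 and 0.000137, and MBD3L2B (0.70; adjusted p = 0.132) did not pass. MBD3L5 had 1 of the widest gaps of any member, 0.853 ± 0.284 CPM in PROTAC against 0.236 ± 0.0458 in UNC (SD, n = 3), at a low level. MBD3L4 had 70 counts in all and MBD3L1 none.

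ZSCAN4, a zinc finger gene of the cleavage embryo tied to telomere upkeep, and ZNF280A, another zinc finger gene, stood apart. ZSCAN4 had 4.11, 3.07 and 4.08 CPM in DMSO, 6.50, 3.34 and 2.56 in PROTAC, against 3.59, 2.09 and 2.73 in UNC. The 3 groups overlapped, and PROTAC 3 lay below UNC 3. No comparison passed: PROTAC against UNC gave 0.57 ± 0.17 (adjusted p = 0.0751, paired), PROTAC against DMSO 0.14 ± 0.16 (adjusted p = 0.755), and the fold change in UNC against DMSO was -0.42. ZNF280A gave 3.47 ± 0.441 CPM in DMSO, 4.499 ± 1.18 in PROTAC, against 3.44 ± 0.771 in UNC (SD, n = 3). Its fold change in UNC against DMSO was -0.02, and its gap between PROTAC and UNC was 0.40 ± 0.13 (adjusted p = 0.111, paired).

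**Figure D3:**
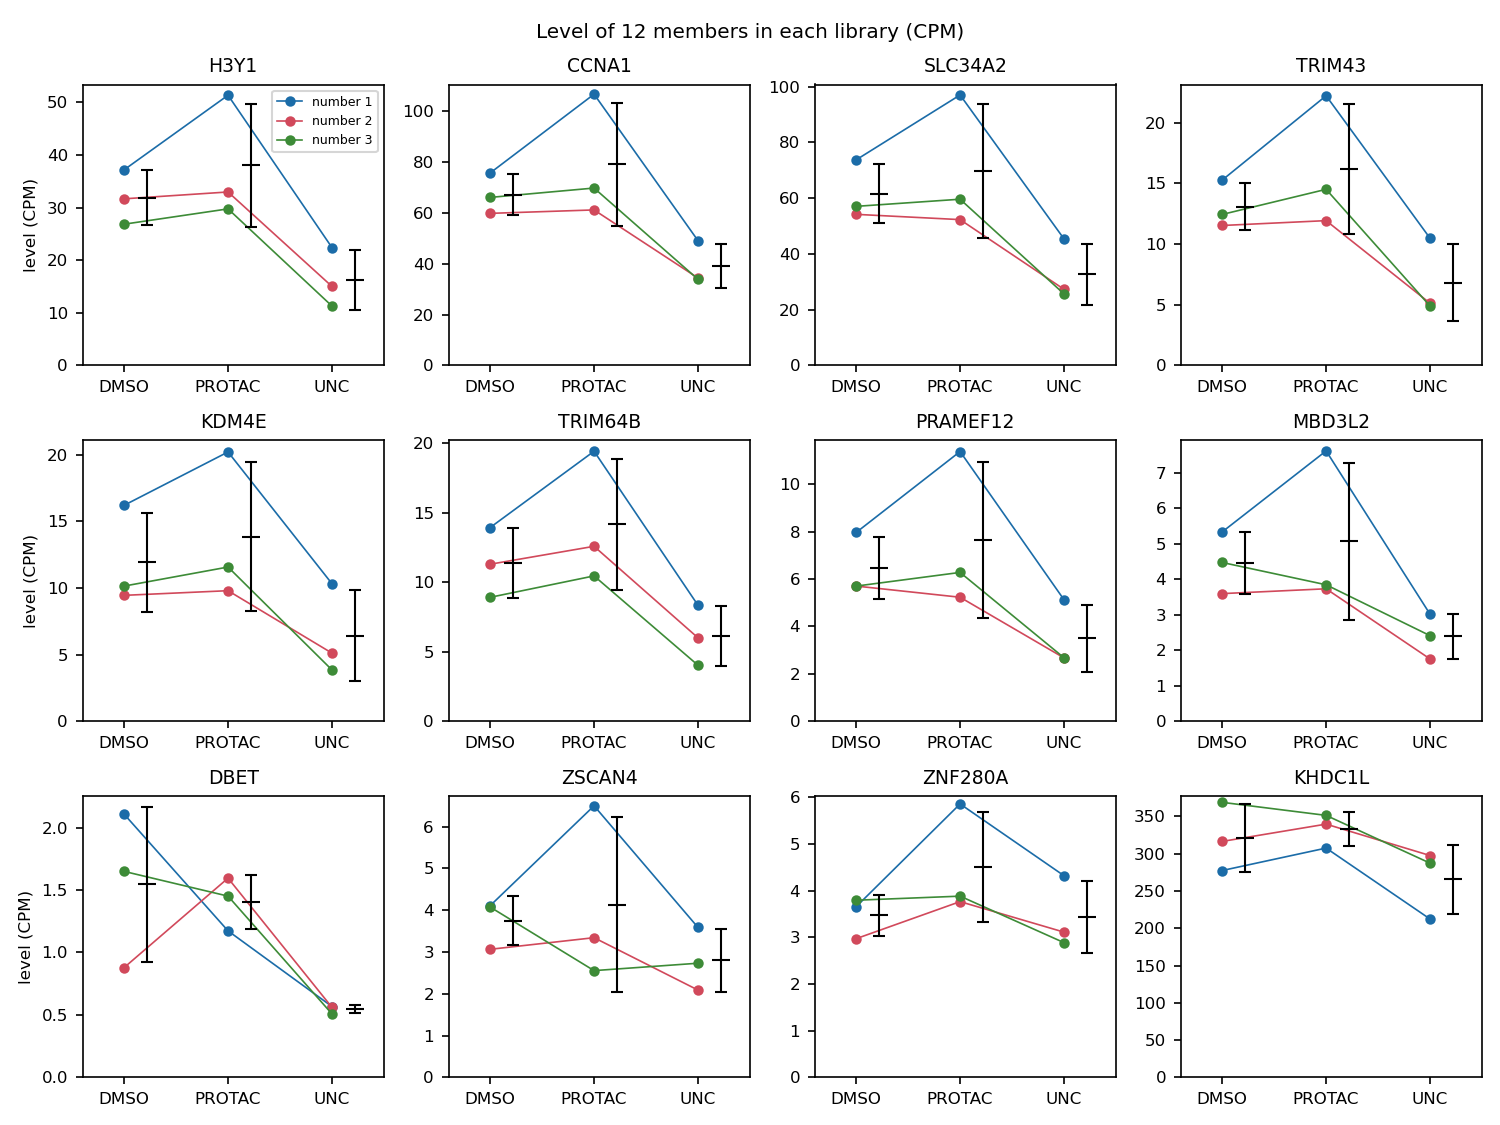
Level in CPM of 12 members in each of the 9 libraries; lines join libraries of the same number, and black marks give the mean and SD of 3. In the first 8 panels each line drops to its lowest point at UNC, DBET is low and tight in UNC, the groups overlap for ZSCAN4 and ZNF280A, and DMSO and UNC overlap for KHDC1L.

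The members with the most counts outside the KHDC1 family, CCNA1 and SLC34A2, are single-copy genes. CCNA1 encodes cyclin A1, known from the germ line, and had 75.6, 59.8 and 66.0 CPM in DMSO, 106.6, 61.1 and 69.7 in PROTAC, against 49.0, 34.4 and 33.9 in UNC. Its UNC libraries lay below all others. PROTAC exceeded UNC 2.01-fold (1.01 ± 0.07; adjusted p = 3.02e-09, paired), and PROTAC against DMSO gave 0.21 ± 0.07 (adjusted p = 0.117) although PROTAC was higher in all 3 numbers.

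SLC34A2 encodes a sodium-dependent phosphate transporter of lung and gut that is also active in cells with the DUX4 program. Its level was 73.7, 54.2 and 57.1 CPM in DMSO, 97.0, 52.3 and 59.6 in PROTAC, against 45.4, 27.3 and 25.6 in UNC. The groups split as for CCNA1, with a gap between PROTAC and UNC of 1.08 ± 0.07 (adjusted p = 3.02e-09, paired) and 0.14 ± 0.07 between PROTAC and DMSO (adjusted p = 0.369).

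The TRIM families encode proteins with RING, B-box and coiled-coil parts, most of them little studied, and TRIM43 is a marker of the cleavage embryo. All 10 tested TRIM members were lower in UNC than in DMSO within every number (24.1% of all genes were). That count only describes them, since values of these libraries were known when they were chosen. In the paired fit all 10 were called higher in PROTAC than in UNC (2.17% of all genes were), and by group alone 0 were called in either comparison. Several of the 10 are close copies that can share reads. TRIM43 had 15.3, 11.5 and 12.4 CPM in DMSO, 22.2, 11.9 and 14.5 in PROTAC, against 10.5, 5.12 and 4.89 in UNC, without overlap of UNC and the others, and exceeded UNC in PROTAC by 1.26 ± 0.12 (adjusted p = 7.28e-07, paired). TRIM43B gave 1.19 ± 0.15 (adjusted p = 0.000682), and TRIM43 took 48.7 to 55.6% of the counts of the pair.

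TRIM64B had 14.0, 11.3 and 8.93 CPM in DMSO, 19.4, 12.6 and 10.5 in PROTAC, against 8.36, 6.02 and 4.04 in UNC. It exceeded UNC in PROTAC by 1.22 ± 0.09 (adjusted p = 1.57e-11, paired), and in PROTAC against DMSO, where it was higher in every number, it gave 0.29 ± 0.09 (adjusted p = 0.0594). Its close copy TRIM64 had only 24 counts, so TRIM64B took 98.7 to 100.0% of the pair, although 77.5% of the 75-base windows of TRIM64B occur in another gene, chiefly TRIM64. TRIM64C and TRIM77 had 0 counts in all 9 libraries, which in the summed depth of the series allows at most 0.00491 CPM over the series (3 counts).

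In the TRIM49 group the gap between PROTAC and UNC was 1.13 ± 0.16 for TRIM49, 1.31 ± 0.16 for TRIM49B, 1.21 ± 0.13 for TRIM49C and 1.10 ± 0.24 for TRIM49D2, with adjusted p from 6.79e-08 to 0.00399 (paired). TRIM49C was the highest of them at 5.38 ± 1.11 CPM in DMSO (SD, n = 3). TRIM49D1, which holds every 75-base window of TRIM49D2, had 80 counts in all and was not tested. TRIM51 showed the widest gap of any member, from 2.41, 0.867 and 1.23 CPM in PROTAC to 0.693, 0.178 and 0.305 in UNC (1.88 ± 0.27; adjusted p = 1.86e-05, paired). TRIM51G gave 1.77 ± 0.38 (adjusted p = 0.00312).

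TRIM48 had the lowest fold change of any member in UNC against DMSO, -1.60 in the paired fit, from 1.24, 1.68 and 1.32 CPM to 0.798, 0.280 and 0.356. Between PROTAC and DMSO it gave -0.12 ± 0.27 (adjusted p = 0.893), and it exceeded UNC in PROTAC by 1.48 ± 0.30 (adjusted p = 0.00429).

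PRAMEF genes are the largest family and encode leucine-rich-repeat proteins related to PRAME, an antigen of germ line and tumours. Of 17 tested members 7 were called lower in UNC than in DMSO in the paired fit (6.46% of all genes were) and 12 higher in PROTAC than in UNC (2.17%). By group alone 0 were called in either comparison. The members were chosen with values of these libraries known, and many are close copies, so these counts only describe them. Summing the counts of all 23 gave 1.08 ± 0.09 (adjusted p = 8.23e-08, paired) for the second comparison. PRAMEF12, the highest, had 7.96, 5.70 and 5.70 CPM in DMSO, 11.4, 5.23 and 6.28 in PROTAC, against 5.13, 2.68 and 2.68 in UNC. It took 20.1 to 24.2% of the family's counts.

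Among the other members higher in PROTAC than in UNC were PRAMEF2 (log2 fold change 1.11), PRAMEF1 (1.13), PRAMEF7 (1.27), PRAMEF8 (1.33), PRAMEF11 (1.69), PRAMEF15 (1.08) and PRAMEF4 (1.20). PRAMEF5 (1.01), PRAMEF6 (0.99), PRAMEF14 (0.98) and PRAMEF20 (1.00) passed that comparison too, but had the smallest folds in UNC against DMSO of the 12, at -0.42 to -0.52, and among the largest in PROTAC against DMSO, at 0.49 to 0.57. PRAMEF20 was the 1 that passed there, from 4.73, 2.97 and 4.01 CPM in DMSO to 7.52, 4.14 and 4.86 in PROTAC (0.49 ± 0.13; adjusted p = 0.0287, paired). The groups overlapped, and without any 1 of DMSO 1, DMSO 2, PROTAC 1, PROTAC 2 or PROTAC 3 its adjusted p in the paired fit was 0.0820 to 0.278 and it lost the call.

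Members with few counts made up the rest of the family. PRAMEF9 (0.60), PRAMEF10 (0.44), PRAMEF25 (1.11), PRAMEF27 (0.84) and PRAMEF33 (0.89) did not pass between PROTAC and UNC, with SEs of 0.30 to 0.57 and DMSO means of 0.184 to 0.623 CPM. The highest of the 6 untested PRAMEF rows was PRAMEF19, with 69 counts.

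RFPL genes encode ret-finger-like proteins, and RFPL4 members are active in oocytes. RFPL4B was the highest coding gene of the family, at 4.32, 3.97 and 3.06 CPM in DMSO, 6.22, 3.32 and 4.195 in PROTAC, against 3.02, 1.68 and 1.64 in UNC, and exceeded UNC in PROTAC by 1.09 ± 0.15 (adjusted p = 5.60e-06, paired). RFPL2 (1.17), RFPL4A (1.15) and RFPL4AL1 (0.97) also passed, with adjusted p up to 0.00712. RFPL1 (0.80; adjusted p = 0.117) did not. RFPL1S and RFPL3S, antisense transcripts to RFPL1 and RFPL3, gave 0.14 ± 0.15 and 0.45 ± 0.28 and did not pass either. With no known strand setting, reads of RFPL1 and RFPL1S, which overlap over 3873 bases, cannot be told apart.

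The KHDC1 family went its own way. KHDC1L, a KH-domain gene, was at 277.3, 316.3 and 368.7 CPM in DMSO, 307.4, 339.5 and 351.2 in PROTAC, against 212.3, 297.4 and 287.2 in UNC. Its libraries of number 1 were the lowest of each group, opposite to the summed level of the other families. UNC was the lowest within each number, but the size was small: PROTAC exceeded UNC by 0.34 ± 0.06 (adjusted p = 0.000292, paired), and the fold change in UNC against DMSO was -0.28. KHDC1 gave 3.43 ± 0.535 CPM with vehicle, 3.59 ± 0.962 with the degrader and 3.996 ± 0.684 with UNC1999 (SD, n = 3), and was the 1 member with a higher level in UNC than in DMSO within every number (23% of all genes were). KHDC1-AS1 lay at 1.29 ± 0.0766, 1.19 ± 0.202 and 1.28 ± 0.340 CPM. Neither passed in PROTAC against UNC (-0.16 ± 0.13 and -0.14 ± 0.21). KHDC1L lies within an entry on the same strand, ENSG00000243501, that had 132670 counts to its 181406, so their reads may overlap.

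Per kilobase of the longest GENCODE 29 transcript, the order of levels in DMSO was KHDC1L at 505 ± 72.2 CPM per kb, CCNA1 at 35.7 ± 4.25, H3Y1 at 32.6 ± 5.28, SLC34A2 at 14.96 ± 2.56 and H3Y2 at 14.0 ± 2.01 (SD, n = 3). CCNA1 and H3Y1 did not differ beyond their spread. The H3Y2 value divides by a transcript of 445 bases, but its counted row is longer (chr5:17490967-17492076). Its place in this order, and beside SLC34A2, is therefore uncertain and may be too high. TRIM43 followed at 7.78 ± 1.16 and MBD3L2 at 5.64 ± 1.10. Of the 51 tested members, 14 had a DMSO mean under 1 CPM.

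Members varied together over the 9 libraries, as a description of these libraries and not of independent samples, since the points share groups, numbers and depth. The log level of each member (log2 of CPM + 0.1) was set against the mean over all tested rows of the other families. Each row counted once, so large families weigh most, and the KHDC1 rows were left out of every mean. Pearson's r had a median of 0.907, and 27 of 51 were above 0.9. The members most like the rest were SLC34A2 (r = 0.994), TRIM43 (0.993) and PRAMEF12 (0.993), each from another family and chromosome. DBET (0.697), DUX4 (0.561) and RFPL3S (0.455) were less alike, and KHDC1-AS1 (0.350), KHDC1 (0.193) and KHDC1L (0.165) least.

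**Figure D4:**
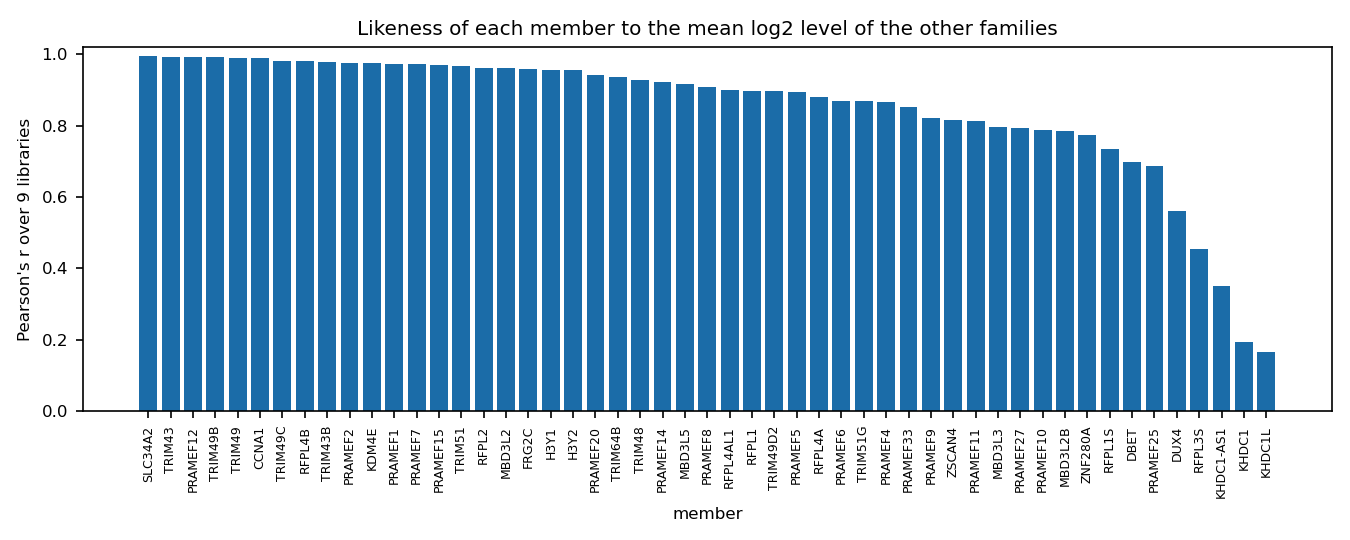
Pearson's r over the 9 libraries between the log2 level of each tested member and the mean log2 level of the tested rows of the other families, KHDC1 rows left out of the mean, 1 bar a member. Most bars stand above 0.8, and those of DUX4, RFPL3S and the 3 KHDC1 rows fall away on the right.

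Reads from near-identical copies can be shared or lost in counting. For 65 members found in GENCODE 29, the share of 75-base windows of their transcripts that also occur in another gene was computed, leaving out genes that overlap the member. It was at least 50% for 33 of them, 26 of these tested: most MBD3L and PRAMEF rows, TRIM43 and TRIM43B, TRIM49, TRIM49C, the TRIM49D pair, TRIM64 and TRIM64B, RFPL4A and RFPL4AL1, FRG2, FRG2B and DUX4. Fold changes of these rows are uncertain as values of a single locus. MBD3L4, PRAMEF26 and TRIM49D2 had no window of their own (100.0% shared), and DUX4 shared 63.7%, mainly with DUX4L entries such as DUX4L2.

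Of the 25 tested members under 50%, 18 were called higher in PROTAC than in UNC in the paired fit, and 19 of the 26 others (2.17% of all genes were, and 0 members by group alone). KHDC1, with no window shared outside overlapping genes, and KHDC1-AS1, with 1.17%, were the members with a negative value in that comparison. CCNA1, SLC34A2, RFPL4B, KHDC1L and ZSCAN4 also shared no window with any gene that does not overlap them, and PRAMEF12 shared 0.175%. Of the 6 tested members with none shared, 4 were called higher in PROTAC than in UNC in the paired fit. KHDC1L was among the 4, at only 0.34, and KHDC1 and ZSCAN4 were not called. RFPL4B overlaps an entry on its strand, ENSG00000281613, over 2765 bases (1035 counts to its 2217). KHDC1 overlaps ENSG00000243501, also on its strand, over 21883 bases (132670 counts to its 2368). Reads of these rows may be shared with those entries. When the counts of each family were summed before the fit, so that reads traded within a family no longer count, 15 of 18 families were higher in PROTAC than in UNC in the paired fit (498 of 24154 features were), 0 of 18 by group alone, and 0 in PROTAC than in DMSO by either fit. The 3 that did not pass were DUX4, ZNF280A and ZSCAN4. Summing changes nothing for families of 1 row, such as CCNA1, DBET, KDM4E, SLC34A2 and TRIM48. Reads shared between families also remain, as DUX4 shares 25.8% of its 75-base windows with DBET.

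**Figure D5:**
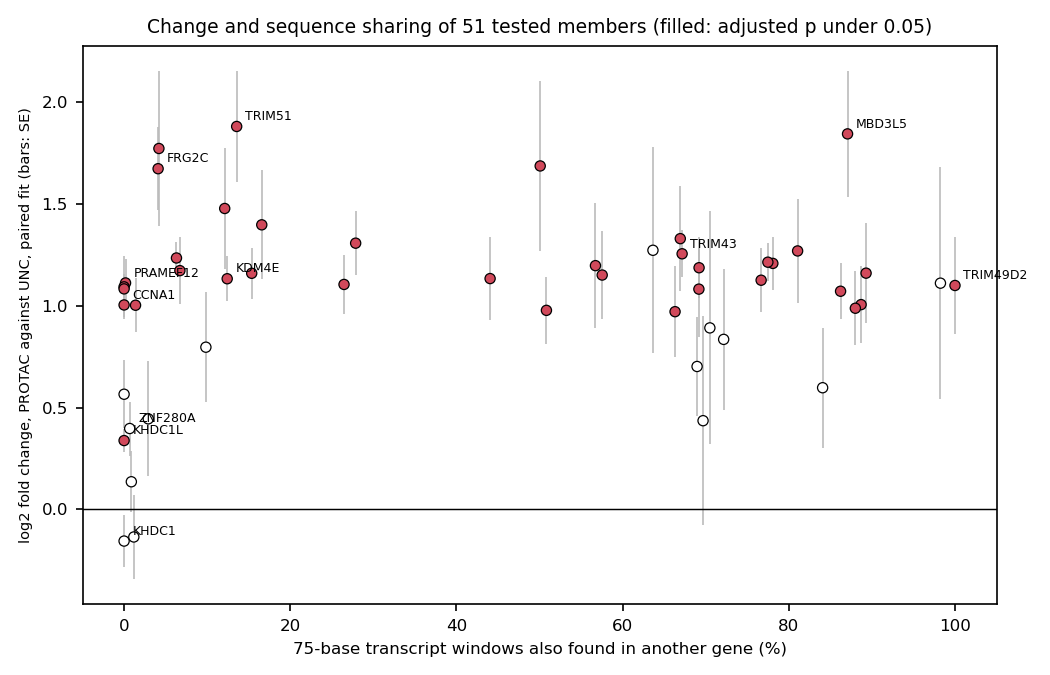
Log2 fold change of PROTAC against UNC in the paired fit (bars are the SE) against the percentage of 75-base transcript windows that also occur in another gene, overlapping genes left out, for the 51 tested members. Members at both ends of the horizontal axis lie near 1, and the KHDC1 rows, RFPL1S and ZNF280A lie nearer 0.

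Of the 16 tested members with the motif in the window, 14 were higher in PROTAC than in UNC in the paired fit, and of the 26 tested members with an entry but no match, 20 (2.17% of all genes were, and 0 members by group alone). CCNA1 and SLC34A2 were among those without one in these windows. This split was not tested, since many members with the motif are copies of each other.

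PRD-like homeobox genes, transcription factors of the cleavage embryo, gave 12 tested genes, of which 5 were higher and 1 lower in PROTAC than in UNC in the paired fit (2.17% and 0.74% of all genes) and 0 by group alone. TPRX1 had 14.9, 10.6 and 11.4 CPM in DMSO, 20.3, 11.1 and 12.6 in PROTAC, against 9.30, 6.02 and 6.48 in UNC, with no overlap of UNC and the others, and exceeded UNC in PROTAC by 1.00 ± 0.09 (adjusted p = 8.21e-10). TPRX2 gave 1.15 ± 0.16 (adjusted p = 4.26e-06) and LEUTX 0.95 ± 0.22 (adjusted p = 0.00981). DUXA, a direct relative and target of DUX4, stayed under 0.4 CPM in every library and did not pass (0.41 ± 0.42; adjusted p = 0.767).

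ARGFX, from the same homeobox list but also active in naive cells, ran the other way. It had 2.65, 3.33 and 4.22 CPM in DMSO, 6.26, 7.30 and 8.26 in PROTAC, against 8.32, 11.9 and 12.3 in UNC. The 3 groups did not overlap. It rose in PROTAC over DMSO by 1.12 ± 0.11 (adjusted p = 5.02e-08, paired) and was lower in PROTAC than in UNC (-0.55 ± 0.10, adjusted p = 0.000318, paired). By group alone neither passed in edgeR, with adjusted p of 0.328 and 0.629.

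Known regulators of DUX4 gave small differences. Of 26 genes that repress D4Z4 or DUX4, 4 were called higher and 1 lower in UNC against DMSO in the paired fit (7.04% and 6.46% of all genes) and 0 in either other comparison. By group alone 0 genes of this list, or of the activator, PRC2 and oocyte lists that follow, were called in any comparison. The largest were ZNF462 (0.26), CHAF1A (-0.24), a subunit of chromatin assembly factor 1, and HDAC2 (0.22). SMCHD1 (0.05 ± 0.05; adjusted p = 0.583) and LRIF1 (0.16 ± 0.06; adjusted p = 0.0614), which keep D4Z4 silent, did not pass. Of 11 activators and partners, PARP1 (0.23) and KDM4A (0.16) were higher and TET2 (-0.66) lower, while DPPA2 (0.09 ± 0.06; adjusted p = 0.353) and DPPA4 (0.10 ± 0.05; adjusted p = 0.207), activators of the DUX genes, did not pass.

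Other lists were mixed. Of 12 tested PRC2 genes, EZH2 (0.24) was among 2 called higher and PHF19 (-0.22) the 1 called lower in UNC against DMSO in the paired fit. Of all genes 7.04% were called higher there and 6.46% lower. EPOP was higher in PROTAC than in UNC (0.51 ± 0.09, adjusted p = 0.000135, paired). EED, the target of the degrader, whose protein and not its RNA is removed, had 11.1 to 12.5 CPM in DMSO, 12.03 to 12.7 in PROTAC, against 11.3 to 12.8 in UNC. Of 17 single-copy genes of oocyte and cleavage stages, 3 were higher and 1 lower in UNC against DMSO in the paired fit (7.04% and 6.46% of all genes), KLF5 (0.40) and ZAR1 (-0.49) among them. KLF17 was higher in PROTAC than in DMSO (0.29 ± 0.06, adjusted p = 0.00621, paired).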

How the data were processed

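RNA of 9 HNES1 libraries (3 DMSO, 3 PROTAC, 3 UNC) was sequenced, and the authors deposited 1 table of raw read counts per gene. The submitters' processing notes name Trim Galore 0.6.10, HISAT2 2.2.1 and the build GRCh38. Which program counted the reads, with which annotation and strand setting, is not given in the sources used here. Per the labels, ribosomal RNA was depleted, while the molecule field reads polyA RNA. Without a strand setting, overlapping genes can share counts, and near-identical copies can trade or lose them.

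Counts were fitted with edgeR 4.0.16 in R 4.3.3 (TMM, default filter by group with a minimum count of 10, robust quasi-likelihood, all 9 libraries, two-sided, Benjamini-Hochberg over 24187 genes, threshold 0.05). The 5 entries without an identifier name or describe genes and were kept. The paired fit adds the replicate number as a block. Same-number libraries deviated together (9 correlations, 0.106 to 0.472), each above 0.1, so paired values stand beside the results they change. The labels call the replicates biological. The script was tested on simulated counts. Members, lists and the rule for named genes (every tested member, the highest untested of each family, up to 3 called genes a list and 7 set ones) were chosen with earlier results of these data known; VTCN1, VGLL1, CGA, GATA2 and EED are named beyond that rule. The result of 1 marker gene is not reported here. A planned protein comparison of copies was replaced by shared windows of GENCODE 29 transcripts. Promoters are RefSeq's, GRCh38.p14. The upper limits for genes at 0 cover counting error only. SDs are between libraries. SEs are those of the fold change in the edgeR fit, taken from its quasi-likelihood F. In the paired fit the spread between numbers is taken out and 4 residual degrees of freedom remain, so its SEs can be smaller. For CCNA1 in PROTAC against UNC the SE was 0.07 paired and 0.20 by group alone.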

Additional observations from a re-analysis of the deposited data

Results flagged for a closer look

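In 37 of the 51 tested members the effects of UNC6852 and UNC1999 differed by the test of the difference itself (PROTAC against UNC, paired fit, edgeR, adjusted p under 0.05), each with PROTAC higher in all 3 numbers; by group alone 0 passed. The members were chosen with low UNC values of these same libraries known, so this count is not independent evidence of a difference between the compounds. The 2 compounds were given at 2.5 and 1 µM, so agent and dose cannot be told apart.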

How the results depend on the processing

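No call changed direction under any setting run. By group alone, the 1 call in UNC against DMSO (DBET) became 0 with library-size or upper-quartile scaling, limma-voom, the 6 libraries compared or a false discovery rate of 0.01, 9 with DESeq2 and 22 with no filter; leaving out a library gave 0 to 10 (10 without UNC 1), and a number 0 to 18 (18 without number 1). The 0 calls in PROTAC against UNC became 12 with DESeq2 and 33 with no filter; leaving out gave 0 to 1 and 0 to 11 (11 without number 1).

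With the replicate block, UNC against DMSO gave 33 calls (also 33 with RLE, library-size or upper-quartile scaling, 28 with DESeq2, 24, 26, 27, 28 or 32 without a library, 23 to 29 without a number, 15 for family sums). PROTAC against UNC gave 37 (37 with each scaling, 36 with DESeq2, 29, 30, 34 or 35, 31 to 34, and 15 for family sums), and PROTAC against DMSO 1 (0 with library size, 1 with RLE, upper-quartile scaling or DESeq2, 0 to 2 without a library, 0 without a number). Block fits with other scalings or DESeq2, or without a library, and the shared windows, were chosen after seeing the data; windows of 50 and 100 bases marked 34 and 29 members in place of 33. Protein identity was not run. Low depth limits members under 1 CPM: 3 counts were 0.0289 to 0.0946 CPM a library.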
